A study of Mus musculus with 21 samples.

Results

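Isolated primary follicles were compared with whole ovaries of day 4 on gene levels read by microarray, with attention to genes of the oocyte, of granulosa cells and of the other cells of the ovary. The comparison uses 6 of the 21 bead arrays of a series on follicle development in female CD1 mice, chosen by sample title, with 3 arrays per group. The group PMD4 is labelled as primordial follicles, but its RNA came from entire ovaries collected on postnatal day 4. The group PRIMARY is follicles of 70 to 90 µm in diameter isolated on day 10. No allele and no treatment is recorded for either group, and both share strain and sex. RNA was taken from pooled material of a stage. Whether the 3 samples of a group stem from different animals is not recorded. Unless stated otherwise, p-values below rest on the variation among samples of the same stage, pooled over the 21 arrays of the series. Part or all of that variation may be technical. Age (day 4 against day 10), follicle stage and tissue (whole ovary against isolated follicle) all change together here and cannot be told apart. PRIMARY repeat 3 carries the follicle stage tag PMD3 and the tissue tag of an ovary, against its title, its source name and its day.

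A primordial follicle is an oocyte arrested in meiosis inside a flat layer of pregranulosa cells. When it is activated the granulosa cells turn cuboidal, the follicle becomes primary, and the oocyte begins to grow, lay down its zona pellucida and store maternal RNA. Around the follicles a whole ovary holds stroma, vessels, blood cells, leukocytes and a covering surface epithelium, most of which are left behind when follicles are dissected out. The array reads RNA per probe. In such bulk samples fewer cells of a type and less RNA per cell cannot be told apart.

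Between 12888 and 13953 of 25697 probes were detected on the 6 arrays, and the median raw signal ran from 96.1 to 143. PRIMARY arrays correlated with each other at a mean of 0.988 to 0.991 and with PMD4 arrays at 0.931 to 0.935, across genes, which are not independent replicates. PRIMARY repeat 3 correlated at 0.989 with its own group, 0.931 with PMD4 and 0.915 with PMD3, the group of its tag. The number of arrays limits the precision. Levels below are on a log2 scale of normalised intensity, and a mean is given with its standard deviation (SD, n = 3). Fold changes and adjusted p-values come from limma with the Benjamini-Hochberg adjustment over all genes tested. Levels of different genes come from different probes and are not compared.

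Of 10067 genes tested, 3178 changed at an adjusted p under 0.05, which is 31.6%. Rises in PRIMARY made up 1575 of them (15.6% of the genes tested) and falls 1603 (15.9%). A change of at least 2-fold was found for 649 rises (6.45%) and 801 falls (7.96%). At 4-fold or more falls stood at 250 and rises at 156, and at 8-fold or more at 62 and 33. Without PRIMARY repeat 3, the array with conflicting tags, 2604 genes changed, 1251 up and 1353 down. The 3 PRIMARY values and the 3 PMD4 values did not overlap for 5243 genes (52.1%). The median log2 difference of all genes was 0.02, and it is the background for each gene list below. Quantile normalisation gives all arrays the same distribution of levels. The small median and the similar counts of rises and falls are therefore partly set by that step. The shares of 15.6% rises and 15.9% falls are the background for the counts of rises and falls in those lists. The lists hold 719 symbols, of which 583 are named on the array and 467 were detected widely enough to be tested. A gene detected in 1 group alone could enter through that group, so the counts describe the members tested and not the whole list.

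**Figure D1:**
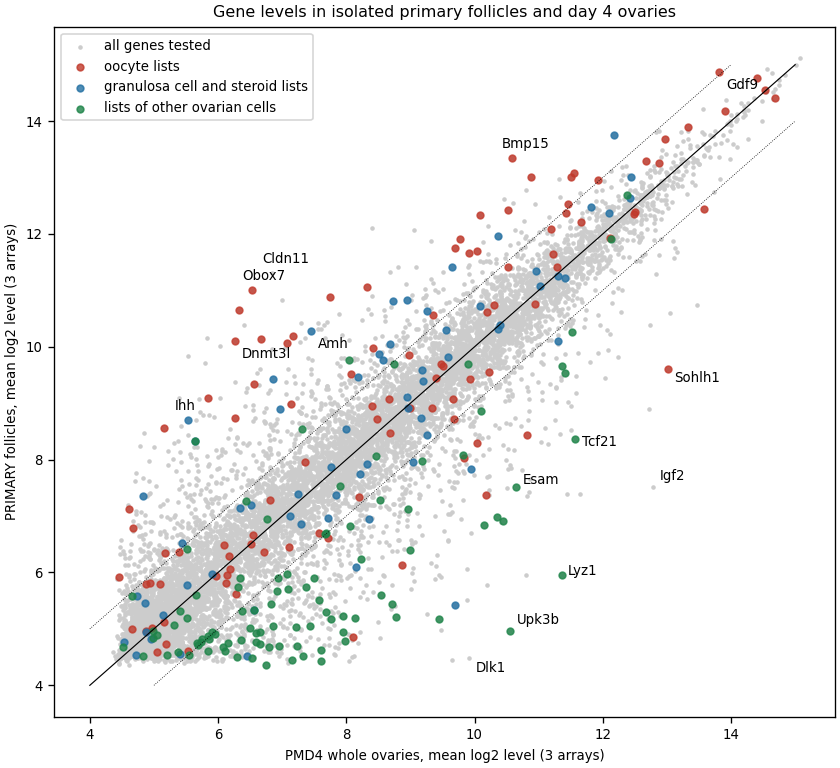
Mean log2 level of each gene tested in PMD4 whole ovaries (x axis) and in PRIMARY follicles (y axis), each the mean of 3 arrays. The solid line marks equal levels and the dotted lines a 2-fold difference; red points are genes of the oocyte lists, blue points of the granulosa cell and steroid lists and green points of the lists of other ovarian cells. Red points lie mostly above the line, and most green points lie below it.

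**Figure D2:**
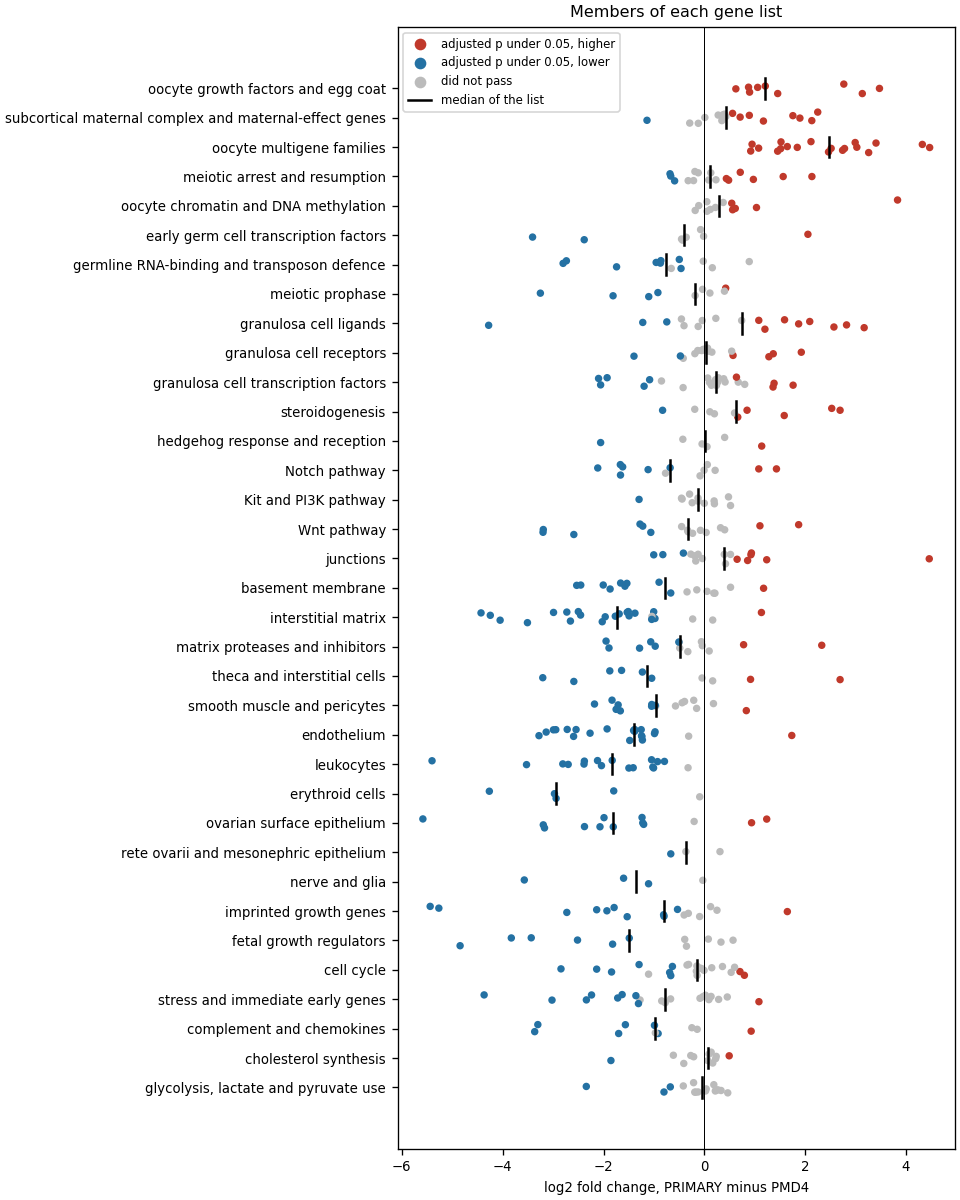
Log2 difference (PRIMARY minus PMD4) of every tested member of the gene lists, 1 point a gene and 1 row a list. Red and blue mark adjusted p under 0.05 in either direction, grey the rest, and black bars the median of the list, which runs from -2.94 for erythroid cells to 2.46 for oocyte multigene families.

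The 12 largest rises included members of the oocyte lists. Obox7, a homeobox gene of the oocyte, had levels of 6.55, 6.36 and 6.67 on the PMD4 arrays and of 10.90, 11.05 and 11.05 on the PRIMARY arrays, a rise of 22.1-fold (adjusted p = 3.50e-13). Its relative Obox1 stood at 6.10, 6.13 and 6.74 and at 10.49, 10.71 and 10.74, or 20.0-fold higher (adjusted p = 1.59e-11). In both genes every PRIMARY value lay more than 3 log2 units above every PMD4 value. Pabpn1l, which encodes a poly(A)-binding protein, rose 20.1-fold to 10.16 ± 0.19, and Pramel25 and Pramel32, of a large multigene family, rose 19.9-fold and 15.1-fold, Pramel25 from detection on 2 of 3 PMD4 arrays. Esrrb, an orphan nuclear receptor, rose 16.0-fold from 6.03 ± 0.23 to 10.02 ± 0.05 (adjusted p = 3.96e-11). Dnmt3l, the cofactor needed to methylate oocyte DNA, rose 14.2-fold, from 6.34, 6.08 and 6.37 to 10.41, 10.01 and 9.86 (adjusted p = 2.48e-09). Cldn11, which encodes a tight-junction protein, stood at 6.60, 6.78 and 7.16 in PMD4 and at 11.02, 11.49 and 11.40 in PRIMARY, a rise of 22.0-fold. The 12 largest rises were completed by Prr18 at 15.8-fold, Upp1, a uridine phosphorylase, at 14.1-fold, Ftdc1 at 13-fold and Pacsin1, an adaptor of membrane bending, at 12.9-fold. With the mean over its probes in place of 1 probe, Pacsin1 rose by 1.79 log2 units in place of 3.69. Probes of close relatives such as the Obox and Pramel genes may read each other's RNA, so the values belong to the family as much as to the gene named.

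Promoter sequence was set beside these changes for 5 genes of the oocyte: the pair of Obox genes at the head of the rises, H1f8 and Zp3 as a linker histone and an egg coat gene that rose, and Sohlh1, a regulator that fell. Each stretch holds the 250 bases before the gene's start, 5′ to 3′ on the gene's strand, from RefSeq on GRCm38.p6. Capitals mark CANNTG, the E-box bound by basic helix-loop-helix factors, the class to which Figla and Sohlh1 belong. The stretches lie at chr7:14659458-14659707 (plus strand) for Obox7, chr7:15547007-15547256 (plus) for Obox1, chr6:115944681-115944930 (plus) for H1f8, chr5:135979855-135980104 (plus) for Zp3 and chr2:25847249-25847498 (minus) for Sohlh1.
Obox7: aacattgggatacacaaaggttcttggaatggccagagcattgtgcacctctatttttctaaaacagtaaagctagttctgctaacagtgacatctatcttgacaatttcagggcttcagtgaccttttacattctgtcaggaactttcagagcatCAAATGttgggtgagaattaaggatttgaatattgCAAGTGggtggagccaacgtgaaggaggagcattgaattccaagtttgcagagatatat
Obox1: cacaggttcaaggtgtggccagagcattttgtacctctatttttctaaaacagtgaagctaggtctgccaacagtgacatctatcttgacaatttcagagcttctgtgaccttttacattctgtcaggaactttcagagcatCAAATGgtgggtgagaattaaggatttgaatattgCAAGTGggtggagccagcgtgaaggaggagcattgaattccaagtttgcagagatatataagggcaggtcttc
H1f8: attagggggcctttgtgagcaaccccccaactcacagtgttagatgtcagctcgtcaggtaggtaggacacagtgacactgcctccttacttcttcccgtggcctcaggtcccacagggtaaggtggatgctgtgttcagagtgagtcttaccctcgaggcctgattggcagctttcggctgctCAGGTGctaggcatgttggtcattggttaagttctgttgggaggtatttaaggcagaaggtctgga
Zp3: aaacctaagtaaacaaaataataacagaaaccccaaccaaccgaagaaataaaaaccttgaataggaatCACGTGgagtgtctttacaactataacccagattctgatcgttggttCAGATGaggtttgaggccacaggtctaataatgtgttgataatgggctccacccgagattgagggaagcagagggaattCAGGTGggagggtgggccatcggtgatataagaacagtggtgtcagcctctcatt
Sohlh1: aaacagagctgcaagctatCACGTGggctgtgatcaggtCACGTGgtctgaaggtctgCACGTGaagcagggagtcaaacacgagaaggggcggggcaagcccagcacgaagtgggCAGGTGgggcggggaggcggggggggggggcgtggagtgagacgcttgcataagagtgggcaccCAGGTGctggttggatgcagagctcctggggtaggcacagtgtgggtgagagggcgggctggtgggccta
Shifted by 14 bases against each other, the Obox7 and Obox1 stretches share 222 of 236 bases (94.1%), and both carry CAAATG and CAAGTG in the shared part. H1f8 holds 1 E-box, at position -66 counted from the start. Zp3 holds 3, with CAGGTG at position -55, and Sohlh1 holds 5, of which 3 are CACGTG. The letters CANNTG, the same on both strands, are common, since 21753 of 32851 promoters of the same length in the RefSeq table hold them (66.2%). They were found for 18 of 18 matched promoters of the oocyte multigene families, 9 of 11 of the maternal-effect genes and 4 of 5 of the growth factor and egg coat genes. The letters AGGTCA, the core read by orphan receptors such as Esrrb and Nr5a2, were searched on both strands. They stand in 14.0% of all promoters, in 5 of the 18 of the multigene families, among them Obox7 and Obox1, and in none of the 16 promoters of the other lists. The Sohlh1 stretch holds them too, at position -215. A match is a description of letters and not of binding.

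In the list of oocyte growth factors and egg coat genes, all 9 tested of 12 listed rose in PRIMARY, against 15.6% of all genes, with a median of 1.21 log2 units. Bmp15, which encodes a growth factor that the oocyte sends to granulosa cells, had levels of 10.66, 10.50 and 10.59 in PMD4 and of 13.39, 13.31 and 13.34 in PRIMARY (6.80-fold higher, adjusted p = 3.22e-08). Its partner Gdf9 was already high in whole ovaries at 13.82, 13.69 and 13.94 and reached 14.95, 14.89 and 14.77, a rise of 2.08-fold (adjusted p = 0.000394). The values of neither gene overlapped between the groups. Fgf8, an oocyte signal to cumulus cells, rose 8.77-fold from 7.75 ± 0.25 to 10.88 ± 0.04 (adjusted p = 2.59e-08), and Oosp3, an oocyte-secreted protein gene, rose 11.1-fold (adjusted p = 4.01e-12). Oosp2 rose 2.31-fold. Bmp6, a further oocyte ligand, was detected on no PMD4 array and rose at least 1.70-fold. Of the egg coat genes, Zp1 rose 1.86-fold to 12.08 ± 0.22 (adjusted p = 0.00348). Zp3, the sperm-binding coat protein, stood at 12.55, 12.70 and 12.75 and at 13.22, 13.34 and 13.31 (1.54-fold, adjusted p = 0.0260). Its call was lost without PMD4 repeat 1 or 2 and without PRIMARY repeat 2 or 3, where the log2 difference stayed between 0.57 and 0.65. The Zp3 call was lost with median scaling too. Astl, the egg protease ovastacin that cleaves the coat after fertilisation, stood at 7.99, 8.37 and 7.84 and at 8.34, 10.60 and 9.63. Its rise of 2.74-fold became 2.05 log2 units without PRIMARY repeat 1, against 1.45 with it.

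**Figure D3:**
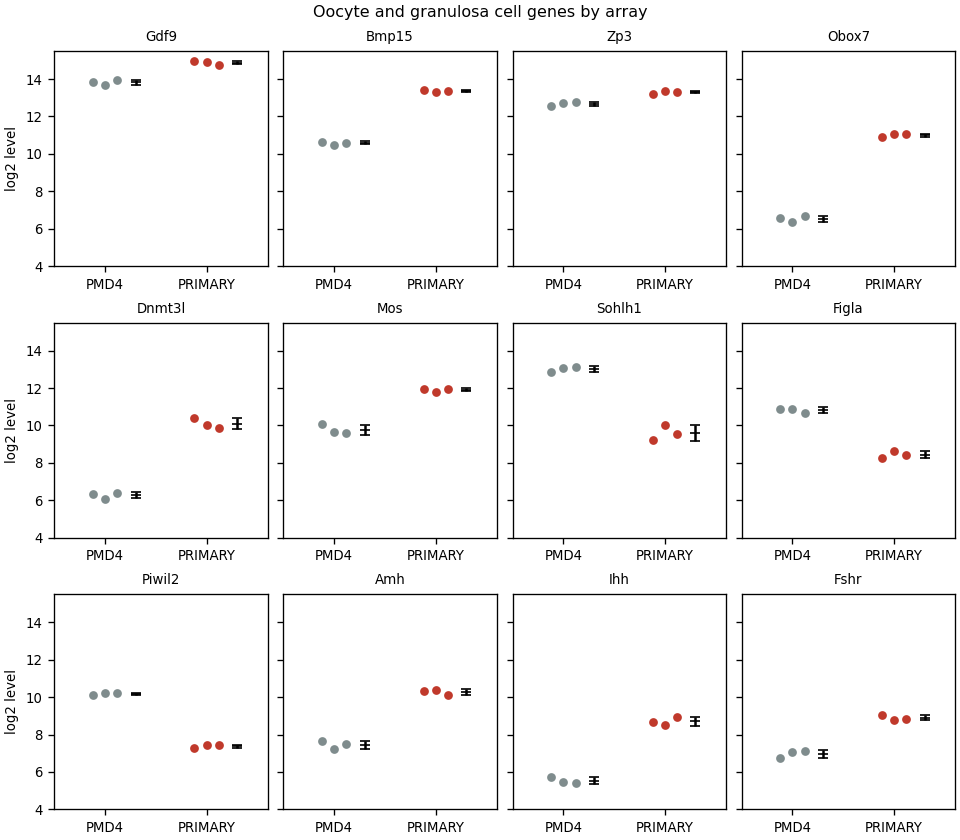
Log2 levels of 12 genes of oocytes and granulosa cells on each of the 3 PMD4 arrays (grey) and the 3 PRIMARY arrays (red), with the mean and SD beside them. Obox7 and Dnmt3l stand well apart upward, Sohlh1, Figla and Piwil2 downward, and Gdf9 and Zp3 differ by 1.06 and 0.62 log2 units.

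The subcortical maternal complex and other maternal-effect genes, whose products wait in the egg for the embryo, gave a divided picture. Of 17 tested of 21 listed, 8 rose, 1 fell and 8 did not pass, with a median of 0.43. Among all genes 15.6% rose and 15.9% fell. The rises included Rfpl4 at 4.75-fold (adjusted p = 6.84e-09), Bcl2l10, a survival factor of the oocyte, at 4.38-fold (adjusted p = 1.85e-08) and H1f8, the linker histone of the oocyte, at 3.72-fold (adjusted p = 1.92e-07). Rfpl4 stood at 9.97, 9.96 and 10.30 in PMD4 and at 12.20, 12.37 and 12.41 in PRIMARY. Bcl2l10 rose by 1.52 log2 units with the mean over its probes, against 2.13. Npm2, a histone chaperone of the egg nucleus, rose 1.86-fold (adjusted p = 0.00108). Members of the subcortical complex differed in their calls. Tle6, a co-repressor relative within the complex, stood at 13.37, 13.31 and 13.32 and at 13.87, 13.86 and 13.95 (1.47-fold higher, adjusted p = 0.0174), a call lost without PRIMARY repeat 3 and with median scaling. Ooep, Nlrp5 and Khdc3 did not pass, Khdc3 with 11.22 ± 0.16 in PMD4 and 11.65 ± 0.09 in PRIMARY (adjusted p = 0.327). Ooep stood at 14.53 ± 0.07 and 14.54 ± 0.07 (adjusted p = 0.979) and Nlrp5 at 13.90 ± 0.18 and 14.18 ± 0.06 (adjusted p = 0.491). Padi6, of the egg's cytoplasmic lattices, stood at 14.69 ± 0.12 and 14.40 ± 0.06 and did not pass either (adjusted p = 0.408). Dppa3, which shields the maternal genome from demethylation, was the member that fell, from 13.71, 13.60 and 13.41 to 12.48, 12.48 and 12.35 (2.20-fold lower, adjusted p = 0.000894).

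The oocyte multigene families rose together. All 19 tested of 34 listed rose, 17 of them by at least 2-fold, with a median of 2.46, or of 2.08 when the members undetected in PMD4 are set to their bound. In all 19 genes the values of the 2 groups did not overlap, against 27.0% of all genes in this direction. Among the Fbxw genes, which encode F-box proteins of the oocyte, Fbxw19 rose 9.57-fold, from 5.75, 5.89 and 5.89 to 9.37, 8.91 and 9.02, and Fbxw16 rose 8.13-fold (adjusted p = 3.79e-09). Of the Tcl1 cluster, relatives of a kinase co-activator, Tcl1b3 rose 7.95-fold to 10.06 ± 0.03 (adjusted p = 3.22e-09), and Tcl1 itself rose 1.93-fold from 11.43 ± 0.14. Oog4 was detected on no PMD4 array and stood at 6.94, 6.93 and 7.52 in PRIMARY (at least 4.22-fold higher). Tcl1b1 and Tcl1b5 were detected on no PMD4 array either and were at least 3.33-fold and at least 1.82-fold higher. Obox2 was detected on 2 of 3 PMD4 arrays and rose 10.6-fold to 8.56 ± 0.07. These genes sit in clusters of near copies, so the members are not independent of each other.

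Genes of meiotic arrest and resumption had 6 rises and 3 falls among 16 tested of 26 listed and a median of 0.11, against 15.6% rises and 15.9% falls among all genes, to which the share of falls is close. Mos, the kinase that later holds the egg at metaphase, had levels of 10.08, 9.64 and 9.58 in PMD4 and of 11.93, 11.81 and 11.96 in PRIMARY (4.39-fold higher, adjusted p = 4.24e-07). Gpr3, the receptor that keeps cyclic AMP high to hold meiotic arrest, rose 1.96-fold to 6.36 ± 0.41 (adjusted p = 0.00550), and Bub1b, a spindle checkpoint kinase, rose 2.96-fold (adjusted p = 3.85e-06). The count of rises was 3 without PMD4 repeat 2 or without PRIMARY repeat 3. The falls, Cdk1 (adjusted p = 0.0245), Btg4 (adjusted p = 0.0384) and Spin1 (adjusted p = 0.0375), were each below 2-fold, and none of them passed without PMD4 repeat 2. None of these falls passed with median scaling either. In the list of oocyte chromatin and DNA methylation 5 of 12 tested (19 listed) rose and none fell, with a median of 0.30, and 3 rose without PRIMARY repeat 2 or with median scaling. Beside Dnmt3l the maintenance methyltransferase Dnmt1 rose 2.05-fold, from 11.96, 12.01 and 11.79 to 12.99, 12.87 and 13 (adjusted p = 0.000447). The de novo enzyme Dnmt3b stood at 9.48 ± 0.11 and 9.70 ± 0.03 and did not pass (adjusted p = 0.386).

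Among early germ cell transcription factors 2 of 8 tested fell and 1 rose, against 15.9% and 15.6% of all genes. Sohlh1, which switches on genes of the primordial oocyte, stood at 12.85, 13.08 and 13.12 in PMD4 and at 9.23, 10.05 and 9.54 in PRIMARY, 10.6-fold lower (adjusted p = 2.44e-07). Figla, the regulator that starts zona pellucida genes, stood at 10.91, 10.90 and 10.65 and at 8.27, 8.63 and 8.41, 5.22-fold lower (adjusted p = 4.14e-08). All PRIMARY values of both genes lay below all PMD4 values. They were the only falls among 8 tested of 14 listed, and Sall4, a zinc finger factor needed by growing oocytes, rose 4.15-fold from 9.69 ± 0.09 to 11.75 ± 0.18 (adjusted p = 7.34e-07). Nobox, a homeobox regulator of the early oocyte, stood at 6.51 ± 0.21 and 6.50 ± 0.34 (adjusted p = 0.979), and Lhx8, its partner in that role, at 9.34 ± 0.18 and 8.91 ± 0.21 (adjusted p = 0.0948). Lhx8 passed as lower with the authors' values, without background correction and with the 6 arrays alone.

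Of 12 tested germline genes of RNA binding and transposon defence (21 listed), 8 fell and none rose, against 15.9% falls among all genes, with a median of -0.76. The fall of Piwil2, a protein that binds piRNAs, was 6.97-fold, from 10.12, 10.20 and 10.23 to 7.29, 7.42 and 7.43 (adjusted p = 1.04e-08). Mov10l1, the helicase of piRNA processing, was 6.66-fold lower at 6.14 ± 0.21 (adjusted p = 4.62e-08), and Tex14, of germ cell bridges, 3.34-fold lower (adjusted p = 6.46e-07). Asz1, a mitochondrial protein of the piRNA pathway, was 1.94-fold lower, and its call was lost without PMD4 repeat 2, where the list had 5 falls. Dazl, an RNA-binding protein of oocytes, stood higher at 9.86 ± 0.14 against 8.97 ± 0.41 without passing (adjusted p = 0.0734), though it passed with the 6 arrays alone and once TLS repeat 2 and PMD3 repeat 2 were removed. Ddx4, a helicase used as a germ cell marker, stood at 5.96 ± 0.18 and 5.94 ± 0.29 (adjusted p = 0.957), with probes that differ in sign.

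Meiotic prophase genes were represented by 9 of 25 listed, of which 4 fell and 1 rose, against 15.9% and 15.6% of all genes. Tex11, needed for crossovers, was detected on every PMD4 array at 7.75, 8.33 and 8.22 and on no PRIMARY array, at least 7.83-fold lower (adjusted p = 8.13e-12). Smc1b, a meiotic cohesin, fell 3.51-fold from 9.84 ± 0.10 to 8.03 ± 0.07 (adjusted p = 7.94e-08), and Stag3, another cohesin subunit, fell 2.15-fold. Mei1, needed for meiotic DNA breaks, was undetected in PRIMARY and at least 1.32-fold lower. The 1 rise, Psmc3ip at 1.34-fold (adjusted p = 0.0330), did not pass with any of the 6 arrays left out in turn. Nor did it pass with median scaling.

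The list of granulosa cell ligands had 8 rises and 3 falls among 17 tested of 23 listed, with a median of 0.74. Among all genes 15.6% rose and 15.9% fell, and the share of falls in the list was near the latter. Ihh and Dhh encode the hedgehog signals that granulosa cells send to theca precursors. Ihh stood at 5.76, 5.44 and 5.39 in PMD4 and at 8.66, 8.50 and 8.94 in PRIMARY (9.0-fold higher, adjusted p = 4.24e-07), and Dhh rose 4.26-fold from 8.72 ± 0.07 to 10.81 ± 0.35 (adjusted p = 1.80e-07). Amh, the anti-Müllerian hormone made once follicles grow, had levels of 7.64, 7.22 and 7.52 and of 10.31, 10.40 and 10.12 (7.06-fold higher, adjusted p = 0.000176). The groups did not overlap for any of these genes. Pdgfc, a platelet-derived growth factor, rose 5.94-fold (adjusted p = 1.50e-09), Wnt4, a signal of granulosa cell identity, rose 3.66-fold (adjusted p = 7.25e-05) and Inha, the inhibin alpha subunit, rose 3.01-fold to 13.76 ± 0.16 (adjusted p = 1.61e-06). Bmp3 rose 2.30-fold and Jag1, a Notch ligand, 2.11-fold. Whether the Jag1 signal came from granulosa cells or the oocyte cannot be told from whole follicles. Kitl, the granulosa cell ligand of the oocyte's Kit receptor, stood at 7.12 ± 0.13 and 6.99 ± 0.22 (adjusted p = 0.791), and Fst, which encodes follistatin, at 10.36 ± 0.13 and 10.32 ± 0.20 (adjusted p = 0.937); neither passed. Inhbb, the activin beta-B subunit, stood at 9.56 ± 0.23 and 10.30 ± 0.38 and did not pass (adjusted p = 0.135). It passed as higher with the 6 arrays alone and once TLS repeat 2 and PMD3 repeat 2 were removed. The falls were Gdf10, a member of the TGF-beta family, Rspo1, a Wnt agonist, at 2.33-fold and Tgfb2 at 1.68-fold. Gdf10 stood at 9.78, 9.58 and 9.73 in PMD4, was detected on 2 of 3 PRIMARY arrays at 5.14, 5.04 and 6.09, and was 19.4-fold lower (adjusted p = 1.71e-10).

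Receptors of granulosa cells had 4 rises, 2 falls and a median of 0.02 over 16 tested of 23 listed, against 15.6% rises, 15.9% falls and the same median of 0.02 over all genes. The count of falls was 1 without PMD4 repeat 2 or 3 or without PRIMARY repeat 2. Fshr, the receptor of follicle-stimulating hormone, stood at 6.73, 7.09 and 7.09 and at 9.04, 8.79 and 8.85 (3.79-fold higher, adjusted p = 5.94e-07). Esr2, the estrogen receptor of granulosa cells, rose 2.58-fold to 10.63 ± 0.26 (adjusted p = 1.16e-05), whereas Esr1, the receptor of stromal and theca cells, was 2.63-fold lower at 6.95 ± 0.36 (adjusted p = 7.88e-05). Bmpr1b, a receptor for oocyte BMP signals, rose 2.43-fold, and Amhr2, which binds anti-Müllerian hormone, rose 1.48-fold from an already high 12.44 ± 0.06. Among transcription factors 4 of 22 tested (27 listed) rose and 5 fell, with a median of 0.23, against 15.6% and 15.9% of all genes; with the 6 arrays alone 8 rose. Nr5a2, the orphan receptor of granulosa cells, was 3.39-fold higher, at 11.41 ± 0.05 against 9.65 ± 0.05 (adjusted p = 4.91e-07). Nr6a1, a germ cell nuclear factor, rose 2.61-fold and Foxo1 2.57-fold. Foxl2, which keeps granulosa cell fate, stood at 6.52 ± 0.18 and 7.19 ± 0.37 (adjusted p = 0.357), and Gata4 at 6.35 ± 0.42 and 7.15 ± 0.36 (adjusted p = 0.110). Both passed as higher with the 6 arrays alone, and also once TLS repeat 2 and PMD3 repeat 2 were removed. Wt1, shared by granulosa cells and the surface epithelium, stood at 12.42 ± 0.21 and 12.64 ± 0.13 (adjusted p = 0.505). The falls were Id1 at 4.28-fold and Id2 at 4.16-fold, inhibitors of helix-loop-helix factors, Irx3 at 2.29-fold, Irx5 at 2.12-fold, both of pregranulosa cells, and Lhx9, of the gonadal ridge and surface, which was undetected in PRIMARY and at least 2.50-fold lower.

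Among 10 tested genes of steroid synthesis (17 listed), 5 rose and 1 fell, with a median of 0.63, or of 0.57 at the bounds. The authors' values gave 3 rises. Cyp17a1, the androgen-making enzyme of theca cells, had levels of 6.01, 5.21 and 5.72 in PMD4 and of 9.20, 6.93 and 8.88 in PRIMARY (6.46-fold higher, adjusted p = 0.000249). PRIMARY repeat 2 was the low array, and without it the log2 difference was 3.39 in place of 2.69. The call was lost with the authors' values (adjusted p = 0.0544). Hsd17b7 rose 3.00-fold to 11.96 ± 0.09 (adjusted p = 1.98e-07) and Hsd17b1, the granulosa cell enzyme that makes estradiol, rose 1.58-fold. Akr1c18, which inactivates progesterone, was undetected in PMD4 and at least 4.94-fold higher at 7.70, 6.77 and 7.60. Hsd3b1 was undetected in PMD4 as well and at least 1.46-fold higher, a call lost with the authors' values. Star, which brings cholesterol into mitochondria, was detected on no array of either group. Of the genes that receive hedgehog signals, 6 of 14 were tested. Ptch1, receptor and classic target of the pathway, stood at 5.65 ± 0.05 and 5.60 ± 0.35 (adjusted p = 0.899), and Hhip, another target, at 5.34 ± 0.05 and 5.39 ± 0.10 (adjusted p = 0.924). Both genes stood low on the scale, close to background, which limits what their lack of a call can say. Disp1, which releases hedgehog from sending cells, rose 2.20-fold (adjusted p = 0.000210), and Scube2, a carrier of the ligand, was undetected in PRIMARY and at least 2.59-fold lower.

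In the Notch pathway, by which pregranulosa cells and vessels signal, 6 of 13 tested (19 listed) fell and 2 rose, with a median of -0.68. Among all genes 15.9% fell and 15.6% rose, and the share of rises in the list was near the latter. The falls included the feedback regulator Nrarp, from 8.22, 8.15 and 8.04 to 5.77, 6.20 and 6.09 (4.33-fold lower, adjusted p = 1.01e-07), the target Hey1 at 3.17-fold (adjusted p = 7.28e-09) and Notch3, the receptor of mural cells, which was undetected in PRIMARY and at least 2.76-fold lower. Hey2, a target gene like Hey1, rose 2.69-fold from 7.08 ± 0.32 to 8.51 ± 0.10 (adjusted p = 0.00243), as did the ligand Jag1. In the Wnt list 6 of 16 tested (26 listed) fell and 2 rose, with a median of -0.33. Its share of rises was not above that of all genes. Wnt4 and Axin2, a target that reports beta-catenin activity, were the rises, Axin2 by 2.15-fold to 10.34 ± 0.14 (adjusted p = 0.00190). Sfrp1, a secreted Wnt antagonist, fell 9.19-fold from 11.09, 10.69 and 10.81 to 8.11, 7.12 and 7.77 (adjusted p = 1.18e-08). Lgr5, a receptor of the ovarian surface, was undetected in PRIMARY and at least 7.22-fold lower, and Wnt5a, of stroma, was detected on 2 of 3 PRIMARY arrays and 6.02-fold lower. Of 12 tested genes of the Kit and PI3K pathway (19 listed), 1 fell and none rose. Both shares were below the 15.9% falls and 15.6% rises of all genes. That gene was Cdkn1b, a brake on follicle activation, at 7.64, 7.58 and 7.74 and 6.65, 6.48 and 5.96 (2.45-fold lower, adjusted p = 2.78e-05). With the 6 arrays alone, 2 members rose.

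Junction genes had 6 rises and 3 falls among 17 tested of 25 listed, with a median of 0.40. Among all genes 15.6% rose and 15.9% fell, and the share of junction falls was near the latter. Beside Cldn11, the rises held the gap junction genes of both follicle compartments. Gja4, the connexin of the oocyte, rose 1.90-fold from 10.32 ± 0.03 to 11.24 ± 0.19 (adjusted p = 0.00160), and Gja1, the connexin of granulosa cells, was 1.57-fold higher, at 14.21 ± 0.09 against 13.56 ± 0.14 (adjusted p = 0.000953). Cdh1, the E-cadherin of oocyte and epithelium, rose 2.36-fold (adjusted p = 0.000410), and Gjb2 and Cldn4 rose 1.81-fold and 1.91-fold. Leaving out any array other than PMD4 repeat 3 left at most 1 of the 3 falls.

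Markers of vessels fell together. In the endothelium list 19 of 21 tested (26 listed) fell and 1 rose, against 15.9% and 15.6% of all genes, with a median of -1.40, or of -1.38 at the bounds. Its mean level ran from 7.75 to 7.83 on the PMD4 arrays and from 6.01 to 6.25 on the PRIMARY arrays, where 12 to 13 of the 21 genes were still detected. Esam, an adhesion protein of endothelial junctions, had levels of 10.77, 10.57 and 10.60 and of 7.29, 7.08 and 8.17 (8.80-fold lower, adjusted p = 1.91e-09), with PRIMARY repeat 3 the highest of its group. Without that array, whose tags conflict, the list's counts of falls and rises moved by less than 1.5 times. Flt1, a receptor of vascular endothelial growth factor, stood at 8.56, 8.61 and 8.48 in PMD4 and at 5.63, 4.87 and 6.30 in PRIMARY, where 2 of 3 arrays detected it, 7.71-fold lower. Emcn, of venous and capillary endothelium, was 6.04-fold lower (adjusted p = 1.50e-09). Icam2, Sox7, Sox17, Vwf and Cdh5, which define endothelial cells, were detected on all PMD4 arrays and no PRIMARY array and were at least 7.01-fold, at least 4.3-fold, at least 3.54-fold, at least 2.88-fold and at least 1.92-fold lower. Pecam1 and Egfl7 were still detected on all PRIMARY arrays, 2.37-fold and 2.34-fold lower. The exception was Sox18, a factor of vessels, which rose 3.33-fold from 8.10, 7.97 and 8.05 to 9.27, 9.95 and 10.10 (adjusted p = 8.28e-06).

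Smooth muscle and pericyte genes had 8 falls and 1 rise among 16 tested of 20 listed, with a median of -0.97, or of -0.67 at the bounds. The falls included Mylk, the kinase of contraction, at 3.36-fold (adjusted p = 0.000547) and Tpm2, a tropomyosin, at 3.56-fold. Mcam was detected on 1 of 3 PRIMARY arrays and 4.53-fold lower. Acta2, the actin of smooth muscle, overlapped between the groups, with 12.30, 11.99 and 12.10 and 12.53, 11.94 and 11.28 (adjusted p = 0.605). The 1 rise, Myh11 at 1.78-fold (adjusted p = 0.0241), was lost without PMD4 repeat 1 or 2, without PRIMARY repeat 3 and with the authors' values.

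**Figure D4:**
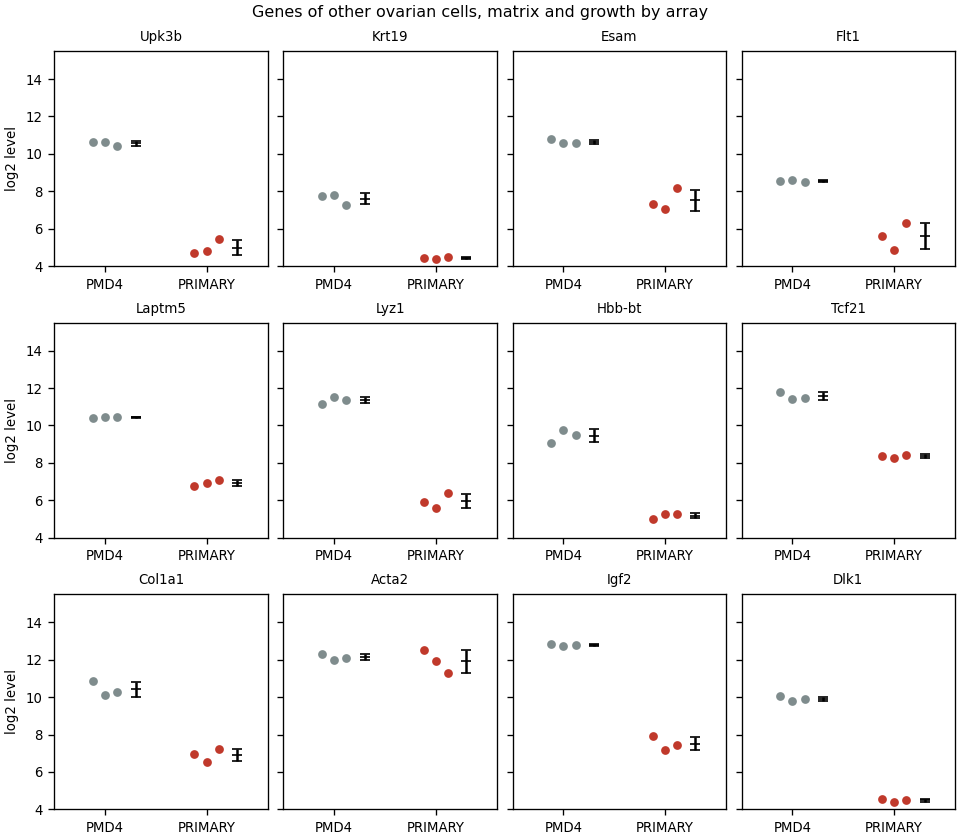
Log2 levels of 12 genes of other ovarian cells, matrix and growth on each of the 3 PMD4 arrays (grey) and the 3 PRIMARY arrays (red), with the mean and SD beside them; the y axis starts near the background. Acta2 overlaps between the groups, and for the other 11 genes every PRIMARY value lies below every PMD4 value.

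Genes of leukocytes and red cells stood close to background in the follicles. Of 17 tested leukocyte genes (26 listed), 16 fell and none rose, with a median of -1.83, or of -1.40 at the bounds. The mean level of the list was 6.91 to 7.06 in PMD4 and 4.94 to 5.12 in PRIMARY. On each PMD4 array 17 of 17 genes were detected, against 4 to 6 on the PRIMARY arrays. Genes could be tested through detection in whole ovaries alone, so these detection counts are partly set by the filter. Laptm5, a lysosomal protein of blood cells, had levels of 10.41, 10.47 and 10.45 and of 6.74, 6.93 and 7.08 (11.5-fold lower, adjusted p = 1.52e-09). Lyz1, a lysozyme gene, fell 42.3-fold from 11.17, 11.52 and 11.38 to 5.88, 5.61 and 6.37 (adjusted p = 9.53e-13). Its near copy Lyz2, the lysozyme gene of macrophages, was undetected in PRIMARY and at least 4.56-fold lower. Probes of the pair may read both. The complement genes C1qb and C1qc of macrophages and Pf4 were detected on every PMD4 array and no PRIMARY array, at least 3.16-fold, at least 4.07-fold and at least 2.63-fold lower. Of 5 tested erythroid genes (16 listed), 4 fell. Hbb-bt, an adult beta-globin gene, stood at 9.07, 9.76 and 9.51 in PMD4 and at 5.01, 5.27 and 5.27 in PRIMARY, where 2 of 3 arrays detected it (19.2-fold lower, adjusted p = 5.73e-09). Alas2, which starts heme synthesis in red cells, was undetected in PRIMARY and at least 5.52-fold lower.

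The surface epithelium list held the largest of all fitted falls. Upk3b, a uroplakin of mesothelium and ovarian surface, had levels of 10.65, 10.62 and 10.40 in PMD4 and of 4.71, 4.78 and 5.43 in PRIMARY, where 1 of 3 arrays detected it (47.9-fold lower, adjusted p = 9.53e-13). Krt19 and Upk1b, markers of the same layer, were undetected in PRIMARY and at least 5.55-fold and at least 3.05-fold lower. Aldh1a2, which makes retinoic acid, was 4.2-fold lower (adjusted p = 2.18e-06), and Krt18 was 3.97-fold lower. In all, 10 of 13 tested (16 listed) fell and 2 rose, with a median of -1.81, or of -1.61 at the bounds. Among all genes 15.9% fell and 15.6% rose, and the share of rises in the list was near the latter. Every PMD4 array detected all 13 and every PRIMARY array detected 8, counts that are partly set by the detection filter, as for the leukocyte genes. The rises were Cdh1 and Bnc1, both also known from oocytes, Bnc1 by 1.91-fold to 9.69 ± 0.24 (adjusted p = 0.00117). Krt8 stood at 9.89 ± 0.14 and 9.69 ± 0.24 and did not pass (adjusted p = 0.539). Of 3 tested genes of the rete ovarii (10 listed), the ducts beside the ovary, only Cdh16 fell (adjusted p = 0.00696), and not without PMD4 repeat 3. Of 4 tested genes of nerve and glia (17 listed), 3 fell, led by Ngfr, the nerve growth factor receptor, at 8.69, 8.72 and 8.92 and 5.25, 5.25 and 5.12 with detection on 2 of 3 PRIMARY arrays (11.9-fold lower, adjusted p = 2.63e-10).

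Theca and interstitial genes had 6 falls and 2 rises among 10 tested of 17 listed, with a median of -1.14. Tcf21, a factor of stromal and theca precursors, had levels of 11.80, 11.43 and 11.47 and of 8.38, 8.27 and 8.44 (9.22-fold lower, adjusted p = 3.54e-09). Pdgfra, a receptor of mesenchymal cells, fell 3.67-fold to 9.54 ± 0.02 (adjusted p = 4.44e-06), and Nr2f2 fell 2.34-fold. In both of the last named genes every PRIMARY array detected the probe. The rises were Cyp17a1, given with the steroid genes, and Thy1, a surface protein of fibroblasts, at 1.89-fold (adjusted p = 0.00948), lost with the authors' values and without background correction. Insl3, a hormone of theca cells, was detected on no array of either group.

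In the interstitial matrix list 20 of 24 tested (30 listed) fell and 1 rose, with a median of -1.73. The lists of endothelium, leukocytes, surface epithelium and theca were lower on the same arrays, and their part in the falls of matrix, Notch, Wnt and growth genes was not tested. Eln, which encodes elastin, had levels of 10.48, 10.04 and 10.09 and of 6.13, 5.21 and 5.98 (21.5-fold lower, adjusted p = 3.96e-11), and Loxl1, the enzyme that crosslinks elastin, fell 19-fold (adjusted p = 1.23e-11). Mfap4, of elastic microfibrils, fell 16.6-fold. Col1a1, the main fibrillar collagen, stood at 10.85, 10.13 and 10.26 and at 6.94, 6.54 and 7.22, 11.4-fold lower (adjusted p = 1.03e-05). The proteoglycan Dcn fell 6.62-fold but remained at 10.74 ± 0.25 in PRIMARY. Vcan, a proteoglycan known from the follicle matrix, was the rise, at 2.19-fold (adjusted p = 5.65e-06). In the basement membrane list 9 of 16 tested (19 listed) fell and 1 rose, with a median of -0.78. Nid1 and Nid2, which link laminin to collagen IV, fell 5.47-fold and 5.78-fold (adjusted p = 5.19e-08 and adjusted p = 1.98e-08), and Col4a1 fell 3.16-fold from 12.28 ± 0.23 to 10.62 ± 0.16 (adjusted p = 7.82e-05). Lamb2, a laminin chain, rose 2.26-fold to 9.37 ± 0.16 (adjusted p = 3.23e-05). Of 14 tested proteases and inhibitors (22 listed), 6 fell and 2 rose, with a median of -0.49. Their share of rises was near the 15.6% of all genes. Plau, the urokinase plasminogen activator, rose 5.02-fold from 8.54, 8.19 and 8.28 to 10.52, 10.77 and 10.70 (adjusted p = 6.63e-09), whereas Mmp2, a collagenase of stroma, fell 3.71-fold (adjusted p = 1.29e-06) and the inhibitor Timp3 fell 3.86-fold (adjusted p = 1.37e-08).

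Imprinted genes of growth fell with the fetal growth regulators. Of 16 tested imprinted genes (26 listed), 10 fell and 1 rose, with a median of -0.80. Igf2, the fetal growth factor, had levels of 12.82, 12.72 and 12.79 in PMD4 and of 7.90, 7.19 and 7.44 in PRIMARY (38.5-fold lower, adjusted p = 7.52e-15). Dlk1, an imprinted inhibitor of differentiation, went from 10.04, 9.82 and 9.88 to no detection on any PRIMARY array, at least 27.5-fold lower (adjusted p = 1.59e-11). Cdkn1c, an imprinted brake on the cell cycle, fell 4.39-fold to 9.94 ± 0.08 (adjusted p = 7.34e-07), and Grb10 and Peg3 fell 3.82-fold and 2.89-fold. Phlda2, a growth inhibitor of the placenta, was the rise, undetected in PMD4 and at least 2.30-fold higher. Of 11 tested fetal growth regulators (18 listed), 6 fell and none rose, with a median of -1.49. Ptn, which encodes pleiotrophin, fell 28.7-fold from 10.90, 10.64 and 10.85 to 5.57, 6.03 and 6.26 (adjusted p = 4.01e-12), and Igfbp4, a binding protein of insulin-like growth factors, fell 14.2-fold (adjusted p = 4.23e-09). Igfbp3 was undetected in PRIMARY and at least 8.27-fold lower, while Igfbp5 stood at 13.25 ± 0.03 and 13.33 ± 0.10 (adjusted p = 0.826).

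In the cell cycle list 7 of 22 tested (29 listed) fell and 2 rose, with a median of -0.15. Among all genes 15.9% fell and 15.6% rose. Without PMD4 repeat 1 the count of falls was 4, and with the 6 arrays alone the count of rises was 5. The D-type cyclins, which carry growth signals to the cycle, had lower levels. Ccnd1 had levels of 9.85, 9.86 and 9.67 and of 7.27, 7.11 and 6.47 (7.18-fold lower, adjusted p = 2.55e-09), and Ccnd3 fell 3.58-fold (adjusted p = 5.78e-08). Ccnd2, the D-type cyclin of granulosa cells, stood at 11.31 ± 0.38 and 10.20 ± 0.35 and did not pass (adjusted p = 0.0915). It passed as lower with the 6 arrays alone (adjusted p = 0.00439) and once TLS repeat 2 and PMD3 repeat 2 were removed. The rises were Cdc6, which loads the replication helicase, at 1.63-fold and Ccne2, a cyclin of S-phase entry, at 1.73-fold. The 6 replication helicase genes Mcm2 to Mcm7 did not pass. Mcm2 passed as higher with the authors' values, with the 6 arrays alone and once TLS repeat 2 and PMD3 repeat 2 were removed. It also passed without background correction, without the detection filter and with the mean over probes. Top2a, of dividing cells, stood at 9.80 ± 0.11 and 9.95 ± 0.27 (adjusted p = 0.616).

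Stress and immediate early genes had 8 falls and 1 rise among 21 tested of 25 listed, with a median of -0.78. Hspa1a, an inducible chaperone, had levels of 10.11, 10.45 and 9.07 in PMD4 and of 5.72, 5.29 and 5.52 in PRIMARY (20.7-fold lower, adjusted p = 5.15e-07). Atf3, a stress-induced factor, was undetected in PRIMARY and at least 6.05-fold lower, and Klf2 fell 5.06-fold (adjusted p = 1.80e-06). The mean level of the list varied more in PMD4, from 9.23 on repeat 3 to 10.0 on repeat 2, than in PRIMARY, from 8.67 to 8.74. Egr1 at 13.98 ± 0.29 and 14.00 ± 0.06 and Fos at 12.66 ± 0.31 and 12.75 ± 0.14, both of the immediate early response, did not pass (adjusted p = 0.956 and adjusted p = 0.877), and Myc rose 2.12-fold (adjusted p = 0.00610). Of 10 tested complement and chemokine genes (16 listed), 6 fell and 1 rose. Cxcl12, a chemokine of stroma and vessels, fell 9.87-fold from 10.24, 10.17 and 10.02 to 7.07, 6.30 and 7.15 (adjusted p = 4.26e-09), and Serping1, the inhibitor of the first complement component, fell 10.3-fold (adjusted p = 5.10e-10). The rise, Cxcl14, was undetected in PMD4, and its call (adjusted p = 0.0449) was lost with any array other than PRIMARY repeat 2 left out. It was also lost without background correction, with the authors' values and without the detection filter. In energy metabolism there were 3 falls and no rise among 16 tested glycolysis genes (22 listed), with a median of -0.05, a share of falls near the 15.9% of all genes, and 1 rise and 1 fall among 12 tested cholesterol genes (20 listed). The rise, Hmgcs1 at 1.41-fold (adjusted p = 0.0326), was lost without PMD4 repeat 1 or 2 and without PRIMARY repeat 1 or 2. It was lost with median scaling as well. Slc2a3, a glucose transporter, was 5.07-fold lower at 5.72 ± 0.18 (adjusted p = 1.37e-08), and Slc2a1, the widespread transporter, stood at 9.63 ± 0.20 and 10.09 ± 0.12 without passing (adjusted p = 0.180), though it passed as higher with the 6 arrays alone (adjusted p = 0.0258). Msmo1, of sterol demethylation, had PRIMARY levels of 8.02, 6.83 and 5.29 against 8.55, 8.56 and 8.58 in PMD4 (3.61-fold lower, adjusted p = 0.00360), and its difference was -2.50 without PRIMARY repeat 1 and -1.14 without PRIMARY repeat 3.

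Detection on every array of 1 group and on none of the other was found for 129 genes of PRIMARY (1.28% of the genes tested) and for 303 of PMD4 (3.01%). By size of the bound the PRIMARY genes were led by Spink2, a protease inhibitor, which was at least 6.58-fold higher with levels of 7.99, 7.84 and 7.47. Gm4981 was at least 6.15-fold higher and Il13ra2, a decoy receptor of interleukin 13, at least 5.97-fold. Tppp3, which bundles tubulin, followed as at least 5.06-fold higher, Akr1c18 as at least 4.94-fold and Gckr, the regulator of glucokinase, as at least 4.43-fold. Dlk1 led the PMD4 genes, before Crygb, a lens crystallin, which was at least 22.9-fold lower from levels of 9.54, 9.73 and 9.68. Pamr1 was at least 10.5-fold lower and Omg, a glycoprotein of myelin, at least 7.95-fold lower, and Igfbp3 and Tex11 completed the group. Of the 12 largest falls only Kcne1l, a potassium channel subunit, has not been named yet. It fell 22.6-fold from 9.26, 9.52 and 9.66 to 5.15, 4.95 and 4.85 (adjusted p = 4.01e-12), with detection on 1 of 3 PRIMARY arrays.

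The same PRIMARY arrays can be set against PMD3, whole ovaries of day 3, which share those arrays with the comparison above and are therefore no independent repeat of it. PMD3 repeat 2 stood apart from its group. Against PMD3, 3640 genes differed (36.2%), and between PMD4 and PMD3 132 did (1.31%). Obox7 was 6.29 log2 units higher in PRIMARY than in PMD3 and 4.47 higher than in PMD4. Sohlh1 differed by -3.68 and -3.41, Upk3b by -5.63 and -5.58, and Tcf21 by -3.12 and -3.20. Hspa1a differed by -2.10 from PMD3 and by -4.37 from PMD4. Dusp1, a phosphatase of the stress response, was -1.31 log2 units from PMD4 (adjusted p = 0.00427) but 0.39 from PMD3 (adjusted p = 0.391), where it did not pass.

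The later stages, all isolated follicles of older mice, place these levels in a series, given as description. Obox7 stood at 11.00 ± 0.09 in PRIMARY, 10.63 ± 0.24 in TLS and 10.44 ± 0.19 in MLS, both secondary follicles, 8.88 ± 0.24 in PREANTRAL and 6.72 ± 0.37 in ANTRAL follicles. The source names of all ANTRAL samples, and that of PREANTRAL repeat 2, name a gonadotropin given to the mice, and PREANTRAL repeat 2 carries the day (20) and diameter (400 to 600 µm) of ANTRAL, against its title. In that sample Obox7 stood at 8.87, between the 9.13 and 8.65 of the other PREANTRAL samples, and their mean without it was 8.89. Dnmt3l went from 10.10 ± 0.28 to 9.74 ± 0.81 in TLS, with a wide SD, and to 6.51 ± 0.39 in ANTRAL. Sohlh1 had a lower mean at each later stage than in PRIMARY, and stood at 6.37 ± 0.28 in ANTRAL. Genes of the surrounding cells differed among themselves after PRIMARY. Upk3b stood at 4.97 ± 0.40 in PRIMARY and at 8.22 ± 0.44 in TLS and 8.61 ± 0.10 in MLS, and Tcf21 at 8.36 ± 0.09, 9.79 ± 0.57 and 10.25 ± 0.20. Dlk1 stayed near background, at 4.76 ± 0.34 in TLS and 4.40 ± 0.06 in ANTRAL. Amh was highest in TLS at 11.11 ± 1.29, a mean within its SD of the PRIMARY level, and stood at 5.58 ± 0.51 in ANTRAL.

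**Figure D5:**
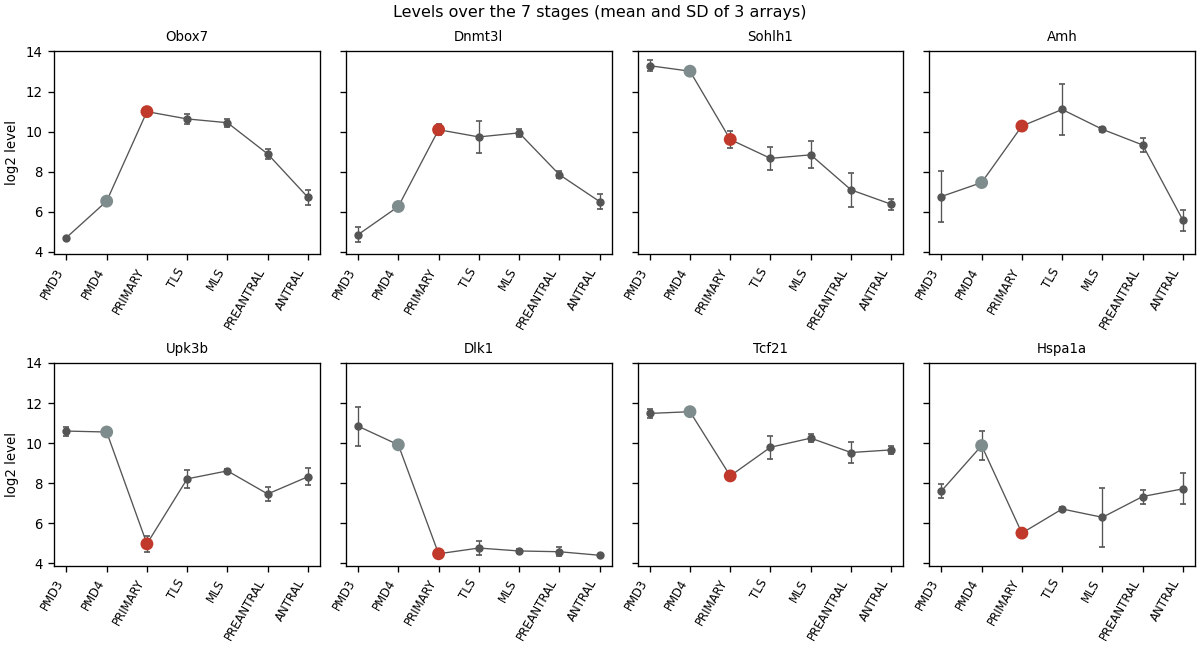
Mean log2 level and SD (3 arrays) of 8 genes over the 7 stages in order of development, with PMD4 in grey and PRIMARY in red and larger. Upk3b and Tcf21 have their lowest mean in PRIMARY and higher means in the later follicles, whereas Dlk1 stays low after PMD4 and Sohlh1 has its highest means in the whole ovaries.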

How the data were processed

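RNA of 21 samples, 3 for each of 7 stages, was hybridised to Illumina bead arrays. Per the column headers the deposited intensity is the average bead signal of a probe, and it is labelled as not normalised. It was treated as not background corrected. The deposited detection p-value, per the file headers, stands beside each signal. Log2 values processed by the authors were deposited for 23286 probes; limma is named in the submitters' processing notes, and the transformation is not given in the sources used here. Differences between those values ran at a slope of 0.494 against those computed here (r = 0.903 across genes).

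Signals were corrected with the normexp method using the detection p (offset 16), quantile normalised and taken to log2 with limma 3.58.1 in R 4.3.3. The columns of 2 antral arrays share a name; each was joined to the p-value column that never rises with its signal, a step chosen after the data were seen. Probes with a detection p under 0.05 on at least 3 arrays were kept, 15836 of 25697, of which 13626 had a gene symbol. Where a gene had several probes, as 2525 did, the brightest on average was used. Of all probes 21857 had 1 symbol and 3840 had none. One limma fit over the 21 arrays and 7 stages gave a shared estimate of spread, and PRIMARY was compared with PMD4, two-sided, with the Benjamini-Hochberg adjustment over 10067 genes and a threshold of 0.05. For a gene detected on no array of a group, "at least" is the bright group's mean over a floor; on each dim array the floor was that array's lowest signal among detected probes, or the probe's own signal where this was greater. The array holds no read depth, and the number of arrays limits the precision.

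The comparison and the gene lists were chosen with earlier results of these data known, so a list's direction is no independent evidence. Named genes are the 12 largest rises and falls among changed genes whose groups do not overlap, the 6 largest bounds in each direction, and list members, changed ones in order of size together with well-known markers that did not pass. Alternatives were median scaling, no background correction, the authors' values, other detection filters, the mean over probes, the 6 arrays alone, a replicate block and leaving out arrays. No column was left out.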

Additional observations from a re-analysis of the deposited data

How the results depend on the processing

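The count of 3178 changed genes ran from 2591 to 2754 with 1 array left out and was 2738 after median scaling, 3102 on the authors' values, 3305 with the mean over probes, 4083 with the 6 arrays alone and 3861 without PMD3 repeat 2 and TLS repeat 2, which deviate from their stages and enter through the shared spread. The share of rises lay between 48.0% and 52.2%, which is no test of their balance with falls, since normalisation partly sets it. The count of at least 2-fold changes, 1450, moved most, to 762 without background correction and to 434 with the authors' values, where folds are compressed; sizes of folds therefore hold for background-corrected signals. A detection threshold of 0.01 gave 175 and 321 genes for PRIMARY and PMD4 in place of 129 and 303. With the replicate number as a block on the 6 arrays, 3988 genes changed. Without PREANTRAL repeat 2, whose source name is that of antral follicles, 3144 did, an alternative chosen after seeing the data. Samples of the same number deviated together by correlations of 0.07, -0.05 and 0.06 only, so the numbers were not taken as pairs. Of 194 named genes that changed, 177 kept their call under every alternative run, and none reversed. Of 28 that did not pass, 11 kept that under every alternative run. In 27 of their 442 values a call was gained, for Ccnd2, Dazl, Foxl2, Gata4, Inhbb, Lhx8, Mcm2 and Slc2a1, and in 18 the sign changed. The changed signs were 0.042 for Fst after median scaling, -0.0074 for Ooep on the authors' values, and 0.072 for Ddx4 and -0.019 for Nlrp5 with the mean over probes. With 1 array left out the log2 difference ran from -0.52 to 0.11 for Acta2, -0.16 to 0.12 for Ddx4, -0.12 to 0.17 for Egr1, -0.044 to 0.26 for Fos, -0.15 to 0.043 for Fst, -0.13 to 0.18 for Nobox, -0.028 to 0.053 for Ooep and -0.18 to 0.15 for Ptch1. Of 1120 counts of list members under the alternatives, 101 moved by over 1.5 times, mostly among counts of 0 to 3. The cause of these moves was not tested. Signals near background limit what can be said of genes detected on few arrays.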

Other observations

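The following gene families were chosen after their values had been seen, so they are described without a test of the family. Apolipoprotein genes, which encode carriers of lipid in plasma, differed among themselves in isolated follicles. Of 9 tested, 5 had passed as higher in PRIMARY and 2 as lower, against 15.6% and 15.9% of all genes. Apoa1, of high-density lipoprotein, stood at 8.42, 8.20 and 8.60 in PMD4 and at 10.89, 11.02 and 10.78 in PRIMARY, and at 10.45 ± 0.04 in MLS and 7.95 ± 0.27 in ANTRAL. Apoc4 went from 5.90, 5.51 and 5.76 to 8.73, 9.02 and 8.80, and Apoa4 from 5.41 ± 0.11 to 8.60 ± 0.10, a call lost with the authors' values. In PMD3, Apoa1 stood at 8.68 ± 2.16, Apoa4 at 6.53 ± 3.33 and Apoc4 at 4.84 ± 0.21. Against PMD3, Apoa1, Apoc4 and Apof passed as higher. Apoa4 and Apoc3 did not (adjusted p = 0.0714 and adjusted p = 0.0943). The falls were Apoc1, from 8.59 ± 0.17 to 7.45 ± 0.15, and Apoe, the lipid carrier of macrophages and steroid-making tissue, from 9.49 ± 0.15 to 8.73 ± 0.24, a call lost without PMD4 repeat 1 or PRIMARY repeat 3.

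Hox genes, which set position along the body axis, were mostly lower or alike. Of 21 tested, 8 had passed as lower and 1 as higher, against 15.9% and 15.6% of all genes, with a median of -0.36. Hoxd10 stood at 8.62, 9.06 and 8.43 in PMD4 and at 5.98, 5.72 and 5.62 in PRIMARY, and its neighbours Hoxd8 and Hoxd9 went from 8.95 ± 0.06 to 6.93 ± 0.13 and from 9.27 ± 0.08 to 7.53 ± 0.10. Hoxa7 was the member that rose, from 7.18, 7.22 and 7.41 to 8.95, 8.63 and 9.0. Genes of mast cells, granule-filled cells of connective tissue, had 6 falls and 1 rise among 8 tested. Among all genes 15.9% fell and 15.6% rose. Tpsab1, a mast cell tryptase, stood at 8.33, 7.63 and 7.51 in PMD4 and was detected on no PRIMARY array (at least 6.45-fold lower), and Cpa3, a carboxypeptidase of the same granules, was at least 3.84-fold lower. The rise was Hdc, which makes histamine, with 9.06, 9.36 and 8.69 and 10.19, 9.25 and 9.81, and its call was lost without PMD4 repeat 1 or 3, without PRIMARY repeat 1 or 3, without the detection filter and with the replicate block (adjusted p = 0.0551). Of 6 tested Nlrp genes 2 had passed, a share near the 31.6% of all genes: Nlrp9a from 7.61 ± 0.26 to 10.31 ± 0.21 and Nlrp4a from 7.09 ± 0.23 to 9.61 ± 0.05.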
